A study of Mus musculus with 9 samples.

Results

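Autophagy genes encode the machinery that wraps cytoplasm in a double membrane and delivers it to the lysosome. The set described here held 36 genes, named by symbol: the core machinery from initiation to conjugation, and the receptors that carry cargo into the autophagosome. All 36 were rows of a table of 35275 genes, and all 36 were among the 13082 genes that had enough counts to be tested. The rule used names alone and no measured value, but the set was drawn up with earlier results of these data known.

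The libraries came from wild type mouse embryonic fibroblasts (MEFs) of the C57Bl/6 strain, connective tissue cells grown in dishes. Cells were kept in DMEM growth medium (the control, iso-osmolar group) or treated for 3 h in the same medium with 200 mM sucrose, reaching 500 mOsm (low-intensity hyperosmotic stress), or with 300 mM sucrose, reaching 600 mOsm (high-intensity stress). Each of the 3 groups had 3 libraries of poly-A RNA, 9 in all, and no source says that replicates came from separate cultures, so p-values measure the spread between these libraries, which may be technical. In RNA from a whole dish, fewer cells that use a gene and less of its RNA per cell cannot be told apart.

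The libraries held 21716042 to 26740832 counts on genes, and the 36 genes took 0.214% to 0.239% of them. The number of genes with at least 1 count was 16452 to 16871 in the control libraries, 18920 to 19222 at 500 mOsm and 17846 to 18031 at 600 mOsm. Of 10 fibroblast markers, 8 were above 1 FPKM (a count scaled by the length of the gene and the total of the library), and Dcn and Lum were at or near 0. Summed markers of epithelium (5 genes) were 0.0317 to 0.237 FPKM in control, 1.08 to 1.47 at 500 mOsm and 0.117 to 0.275 at 600 mOsm. Cdh1 had means of 0.00306, 0.784 and 0.021 FPKM in the same order. Summed markers of skeletal muscle (4 genes) stayed at or under 0.13 FPKM in every library. Those of endothelium (4 genes) were 0.202 to 0.246 FPKM in control, 3.36 to 3.83 at 500 mOsm and 0.577 to 0.901 at 600 mOsm. Pecam1 made up most of the rise (means of 0.0816, 3.25 and 0.484 FPKM), while Cdh5 stood at 0.14, 0.143 and 0.187. Macrophage markers (4 of 5 in the table) summed to 6.12 to 9.77 FPKM in control, 8.22 to 19.1 at 500 mOsm and 8.15 to 17.2 at 600 mOsm, with Lyz2 at means of 3.92, 8.09 and 9.73 and Ptprc at or under 0.0401. Neural markers (4 genes, mostly Nes) summed to 48 to 51.6, 40.1 to 48 and 36.3 to 39.2 FPKM. The part of such cells in the values below was not tested.

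In mammalian cells autophagy is started by the Ulk1 kinase complex, which is held back by the nutrient-sensing kinase mTORC1. The complex activates the class III phosphatidylinositol 3-kinase, whose lipid product PI3P recruits Wipi proteins. Conjugation enzymes that resemble the ubiquitin cascade then attach small Atg8 proteins (LC3 and Gabarap) to the growing membrane, and receptors such as p62 (Sqstm1) bind both cargo and Atg8 proteins. Much of this control works on proteins, through phosphorylation and lipid conjugation, which RNA levels do not measure.

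In control fibroblasts the 36 genes spanned a wide range of levels, which were compared as FPKM because it is scaled by gene length. Sqstm1 was the highest at 213 ± 5.79 FPKM (SD, n = 3), at the 97.5th percentile of the genes tested. The Atg8 genes followed, with Gabarap at 137 ± 5.38 FPKM. Gabarapl1 (70.7 ± 1.59 FPKM) and Gabarapl2 (70.2 ± 2.41 FPKM) came next, and their libraries overlapped. The lowest were Atg14 (1.62 ± 0.132 FPKM), which directs the lipid kinase to the forming autophagosome, the protease gene Atg4c (1 ± 0.248 FPKM), the Ulk1 complex scaffold gene Rb1cc1, also called FIP200 (0.649 ± 0.378 FPKM), and Atg10 (0.417 ± 0.138 FPKM), which encodes the enzyme that joins Atg12 to Atg5. The median of the 36 genes was 9.16 FPKM, and that of the genes tested was 5.99 FPKM. In the order of control levels, 19 of the 35 neighbouring pairs had overlapping libraries and so cannot be ranked.

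**Figure D1:**
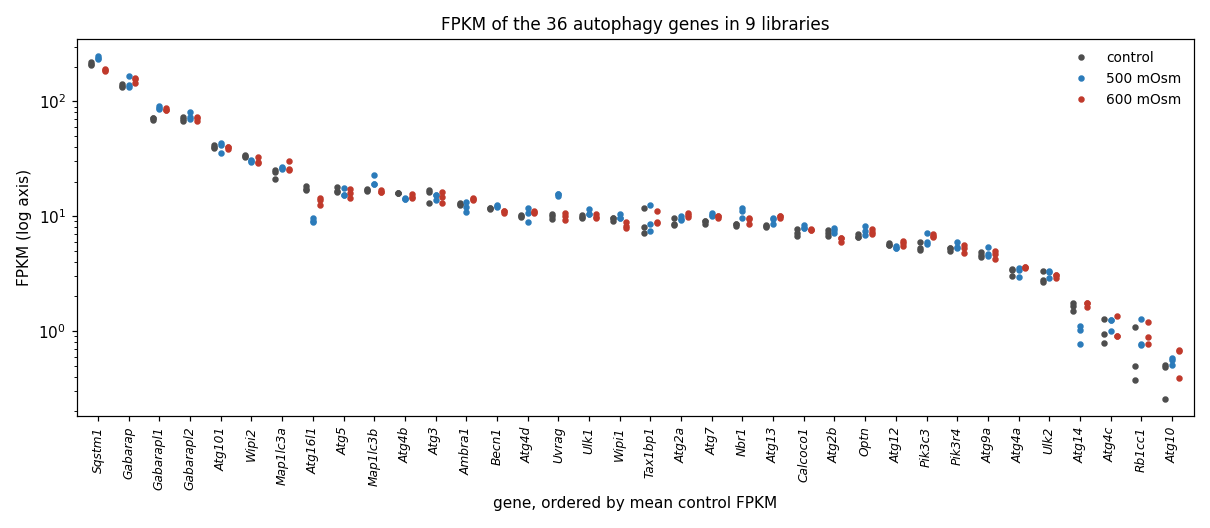
FPKM of the 36 autophagy genes (log axis), 1 point per library, for control (grey), 500 mOsm (blue) and 600 mOsm (red), ordered by the control mean. The groups lie close together for most genes. At 500 mOsm the points of Atg16l1 and Atg14 sit below the other groups and those of Uvrag above them.

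Low-intensity stress changed 9 of the 36 genes relative to control at an adjusted p under 0.05 (edgeR's quasi-likelihood test, Benjamini-Hochberg over all genes tested). This was 25% of the set, where 28.0% of all genes tested were called. Of these, 6 were higher, beside a background of 13.2%, and 3 were lower, beside 14.8%. High-intensity stress changed 8 of 36 relative to control, where 35.1% of all genes were called: 5 higher (background 15.1%) and 3 lower (background 20.0%). Between the stresses, 10 of 36 genes differed, where 29.1% of all genes did: 3 were higher at 600 mOsm (background 11.9%) and 7 were lower (background 17.2%). DESeq2 called 8, 6 and 9 of the 36 in the same order, and 3688, 4250 and 3574 of the 23419 genes it fitted. The 3 comparisons share libraries and are not independent.

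The changes were small. None of the 36 genes passed an absolute log2 fold change of 1 in any comparison, a size that 9.43%, 7.28% and 7.27% of all genes passed at 500 mOsm against control, 600 mOsm against control and 600 against 500 mOsm. The median log2 fold change of the set was 0.10, 0.08 and -0.01 in the same order, and that of all genes was 0.01 each time. The median absolute change was 0.14, 0.13 and 0.10 for the set, and 0.17, 0.22 and 0.18 for all genes. The 95% interval lay within 0.5 of 0 for 28, 31 and 30 of the 36 genes. The 3 control values did not overlap the 3 values at 500 mOsm for 17 of 36 genes, where 40.9% of all genes did not overlap. The matching counts were 16 of 36 for 600 mOsm against control (48.4% of all genes) and 13 of 36 between the stresses (41.5%).

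**Figure D2:**
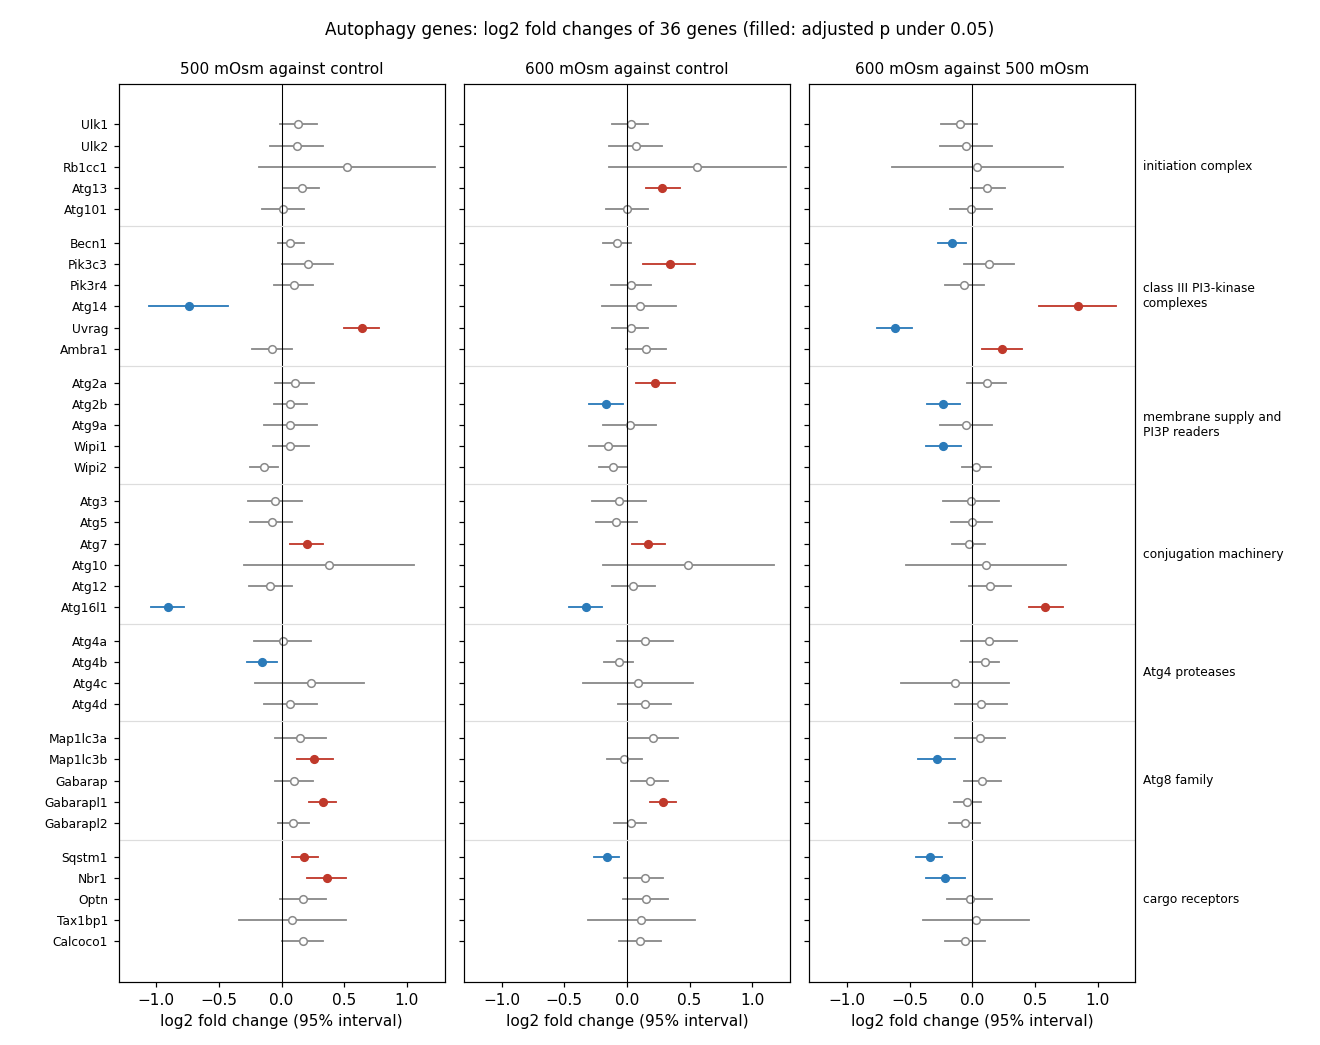
Log2 fold changes of the 36 autophagy genes in the 3 comparisons, with 95% intervals as lines and genes grouped by role. Filled points passed an adjusted p of 0.05 (red, higher; blue, lower). Most points lie near 0, and Atg16l1, Atg14 and Uvrag lie farthest out among the filled points at 500 mOsm.

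Promoters of 5 of the genes whose RNA changed are shown because they cover each direction of change: Uvrag, Sqstm1, Map1lc3b and Gabarapl1 rose at 500 mOsm and Atg14 fell. Each run is the RefSeq promoter of 300 bases (250 before and 50 from the start site on) on the gene's strand of GRCm38.p6, and capitals mark the motif matches. They lie at chr7:99141095-99141394 (Uvrag, minus strand), chr11:50210771-50211070 (Sqstm1, minus), chr8:121590188-121590487 (Map1lc3b, plus), chr6:129532942-129533241 (Gabarapl1, plus) and chr14:47568385-47568684 (Atg14, minus).
Uvrag: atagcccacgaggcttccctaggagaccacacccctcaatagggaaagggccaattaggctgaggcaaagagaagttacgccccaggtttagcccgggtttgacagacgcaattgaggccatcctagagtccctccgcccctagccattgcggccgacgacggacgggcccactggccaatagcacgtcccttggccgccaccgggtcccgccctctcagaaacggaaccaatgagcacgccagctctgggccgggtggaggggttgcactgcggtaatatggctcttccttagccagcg
Sqstm1: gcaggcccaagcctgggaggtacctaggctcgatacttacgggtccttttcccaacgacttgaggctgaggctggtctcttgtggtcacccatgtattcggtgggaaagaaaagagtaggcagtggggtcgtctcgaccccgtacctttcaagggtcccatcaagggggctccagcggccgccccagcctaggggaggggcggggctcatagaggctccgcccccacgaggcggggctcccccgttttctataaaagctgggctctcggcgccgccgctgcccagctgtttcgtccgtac
Map1lc3b: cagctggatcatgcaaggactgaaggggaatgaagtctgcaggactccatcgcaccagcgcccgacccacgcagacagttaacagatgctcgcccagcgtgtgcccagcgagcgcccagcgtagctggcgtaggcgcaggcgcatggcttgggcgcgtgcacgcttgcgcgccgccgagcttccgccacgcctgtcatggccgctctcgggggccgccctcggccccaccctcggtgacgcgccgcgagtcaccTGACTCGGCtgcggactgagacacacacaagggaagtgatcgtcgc
Gabarapl1: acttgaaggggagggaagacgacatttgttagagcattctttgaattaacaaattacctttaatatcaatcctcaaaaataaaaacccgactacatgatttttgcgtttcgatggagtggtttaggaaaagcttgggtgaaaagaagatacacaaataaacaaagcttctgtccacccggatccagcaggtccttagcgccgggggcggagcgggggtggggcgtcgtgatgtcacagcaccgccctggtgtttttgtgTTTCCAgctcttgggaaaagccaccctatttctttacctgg
Atg14: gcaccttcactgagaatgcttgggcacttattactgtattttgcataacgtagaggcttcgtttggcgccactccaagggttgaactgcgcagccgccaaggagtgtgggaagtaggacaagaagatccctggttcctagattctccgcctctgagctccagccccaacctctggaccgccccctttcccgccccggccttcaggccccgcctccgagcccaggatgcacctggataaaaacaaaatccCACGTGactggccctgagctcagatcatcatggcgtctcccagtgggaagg
Promoters of 30 of the 36 genes were used, 34 in all. Those of Pik3c3, Atg12, Atg16l1, Becn1, Rb1cc1 and Map1lc3a were not used. Some of these were left out by a filter that was not applied to all promoters, so the shares below are not strictly matched. Their median GC content was 59.7%, against 52.7% for all 32851 promoters.

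In the Atg14 promoter the capitals mark CACGTG, the E-box at the centre of the CLEAR element that Tfeb and Tfe3 bind. It held this E-box across the start site. CACGTG occurred in 4 of the 34 promoters (Atg14, Atg3, Atg5 and Atg7) and in 7.15% of all promoters, and the full CLEAR element in 0 of 34 and 0.326%. The Map1lc3b promoter held TGACNNNGC, the core of the antioxidant response element of Nrf2, as did Atg13, Tax1bp1 and Ulk2 (4 of 34, against 12.4% of all). The Gabarapl1 promoter held TGGAAA, the core of the tonicity-responsive enhancer of TonEBP, on the opposite strand (3 of 34, against 21.4%). TGATGNAA (Atf4) and GTAAACA (forkhead box O factors) were in 0 of 34 promoters, against 3.97% and 3.65% of all. Both strands were searched, and the CLEAR element contains the E-box. A match describes these letters only.

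The initiation complex of Ulk1, Ulk2, Rb1cc1, Atg13 and Atg101 had 1 of 5 genes called by edgeR in any comparison, Atg13 at 600 mOsm against control, where 35.1% of all genes were called (28.0% at 500 mOsm against control and 29.1% between the stresses). Ulk1, the kinase that starts autophagy, measured 49.4, 52.0 and 52.9 CPM (counts scaled by the effective library size) in the control libraries, 54.3, 61.0 and 54.0 at 500 mOsm, and 51.3, 50.1 and 56.1 at 600 mOsm. The 500 mOsm values lay just above the control values and the 600 mOsm values overlapped both groups. Neither difference from control passed the test, with log2 fold changes of 0.13 (95% interval -0.01 to 0.28) and 0.03 (-0.12 to 0.17). Atg13, an adaptor subunit of the complex, rose at 600 mOsm. It measured 30, 29.7 and 28.8 CPM in control, 30.9, 34.0 and 34.1 at 500 mOsm, and 36.8, 35.5 and 35.5 at 600 mOsm, with no overlap between any of the groups. The log2 fold change was 0.28 ± 0.0636 (SE; edgeR adjusted p = 0.00421) at 600 mOsm and 0.16 ± 0.0637 (adjusted p = 0.0803) at 500 mOsm.

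Rb1cc1 varied more between replicates than almost any gene of like expression. It measured 2.82, 3.77 and 8.14 CPM in control, 9.67, 5.84 and 5.83 at 500 mOsm, and 5.99, 8.95 and 7 at 600 mOsm. Its pooled within-group SD was 0.497 on the log2 scale, at the 99.2th percentile of 1139 genes of like expression. The receptor gene Tax1bp1 behaved alike, with 23.2, 26.5 and 38.0 CPM in control, 40.9, 24.7 and 27.6 at 500 mOsm, and 28.7, 36.2 and 30.2 at 600 mOsm. Control replicate 3, 500 mOsm replicate 1 and 600 mOsm replicate 2 were the highest of their groups for both genes. Both transcripts are poor in GC (39.1% and 39.6%, at the 3.31 and 4.25 percentiles of the genes tested), and libraries differed in how counts followed GC content: across 13022 genes the rank correlation of a library's deviation from its group with GC ranged from -0.473 to 0.475. It was -0.0628, -0.179 and -0.473 in those 3 libraries, and -0.271 and -0.235 in control replicate 1 and 500 mOsm replicate 3, where neither gene was raised. The part of GC content in this spread was not tested. For neither gene did a comparison pass the test, and the 95% interval for Rb1cc1 was -0.18 to 1.22 at 500 mOsm, beside -0.14 to 1.27 at 600 mOsm. With counts corrected for GC content and length, Rb1cc1 was called at 600 mOsm (log2 fold change 0.70, adjusted p = 0.0373).

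**Figure D3:**
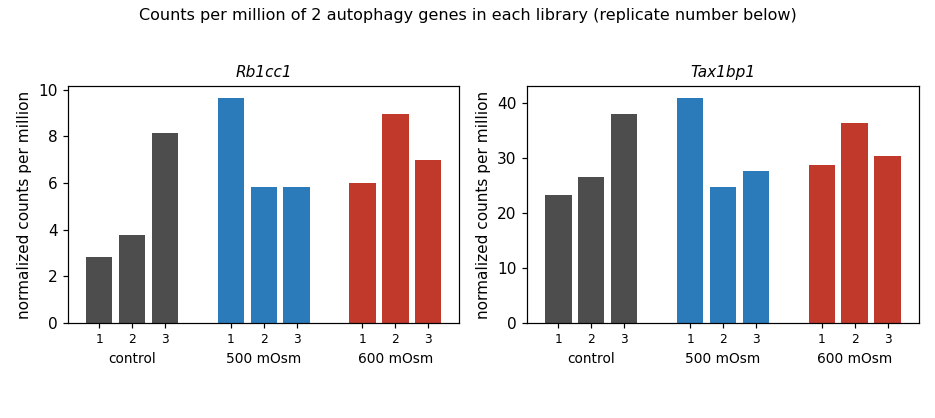
Counts scaled by library size (CPM) of Rb1cc1 and Tax1bp1, 1 bar per library, with the replicate number below. In both genes the highest bars are control replicate 3, 500 mOsm replicate 1 and 600 mOsm replicate 2.

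In the class III PI3-kinase complexes, 2 alternative subunits differed between the stresses. Atg14 and Uvrag encode alternative partners of the Becn1 and Vps34 (Pik3c3) core: Atg14 takes it to the forming autophagosome, and Uvrag to endosomes and later steps. At 500 mOsm Uvrag rose and Atg14 fell, and at 600 mOsm neither was called against control. Uvrag measured 33.9, 36.1 and 32.0 CPM in control, 53.8, 52.4 and 53.1 at 500 mOsm, and 35.1, 36.2 and 32.6 at 600 mOsm. Only the 500 mOsm libraries stood apart. Uvrag was 1.56-fold of control at 500 mOsm (log2 fold change 0.64 ± 0.0648, adjusted p = 8.5e-06) and 0.652-fold of the 500 mOsm level at 600 mOsm (adjusted p = 1.57e-05). Against control, the change at 600 mOsm was 0.03 (95% interval -0.12 to 0.17).

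Atg14 measured 5.97, 5.69 and 5.07 CPM in control, 3.77, 3.58 and 2.63 at 500 mOsm, and 5.65, 5.95 and 6.26 at 600 mOsm. All 500 mOsm libraries lay below all others. The log2 fold change was -0.74 ± 0.145 at 500 mOsm (adjusted p = 0.0017), and 600 mOsm was 0.84 ± 0.144 above 500 mOsm (adjusted p = 0.00077). On log2(FPKM + 1), which shrinks the change of a gene this low, the fall was -0.42 and was still called.

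The core subunits moved less. Becn1 measured 50.9, 50.6 and 50.5 CPM in control, 52.3, 54.3 and 53.4 at 500 mOsm, and 48.6, 47.4 and 47.5 at 600 mOsm. The groups did not overlap, but the steps were small, and Becn1 had one of the tightest spreads among replicates (0.0194 on the log2 scale, at the 0.272 percentile of 1836 genes of like expression). Becn1 did not pass the test against control at either stress (0.07 and -0.08), and was lower at 600 than at 500 mOsm by a log2 fold change of -0.16 ± 0.05 (adjusted p = 0.0322). Pik3c3, the catalytic subunit, measured 19.4, 16.8 and 17 CPM in control, 18.6, 19.6 and 23.1 at 500 mOsm, and 22.2, 22.6 and 22.2 at 600 mOsm. Its 600 mOsm libraries lay above all control libraries, with a log2 fold change of 0.34 ± 0.0937 (adjusted p = 0.0148). Ambra1, which links Becn1 to Ulk1, measured 65.1, 68.5 and 65.9 CPM in control, 62.2, 70.4 and 55.6 at 500 mOsm, and 76.1, 72.1 and 73.6 at 600 mOsm. It was higher at 600 than at 500 mOsm (0.24 ± 0.0738, adjusted p = 0.0294). The regulatory subunit gene Pik3r4 was not called in any comparison.

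Of these smaller calls, Becn1 between the stresses was lost when any 1 of 7 libraries was left out (adjusted p up to 0.12), these being control replicates 2 and 3, 500 mOsm replicates 2 and 3 and each 600 mOsm replicate, and also after the correction for GC content and length (-0.11, adjusted p = 0.155), by DESeq2, without the filter, in a fit of just the 2 groups and with the replicate block (up to 0.243). Pik3c3 was lost without control replicate 2 (adjusted p = 0.0562) or 3 (0.0548), and Ambra1 without 500 mOsm replicate 1 or 3 or 600 mOsm replicate 1 or 3 (adjusted p 0.0622 to 0.1).

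Among genes that supply membrane and read PI3P, the 2 Atg2 paralogs, which encode lipid transfer proteins, differed in direction at 600 mOsm. Atg2a measured 53.3, 62.4 and 54.3 CPM in control, 60.3, 64.4 and 58.3 at 500 mOsm, and 66.1, 62.6 and 69.6 at 600 mOsm. Its 600 mOsm values lay above the control values, by a log2 fold change of 0.22 ± 0.0709 (adjusted p = 0.0282). Atg2b measured 76.2, 73.8 and 67.6 CPM in control, 76.5, 72.7 and 79.1 at 500 mOsm, and 66.9, 65.4 and 61.8 at 600 mOsm. Its 600 mOsm values lay below both other groups, at -0.17 ± 0.0603 against control (adjusted p = 0.0497) and -0.23 ± 0.0601 against 500 mOsm (adjusted p = 0.011). The PI3P reader Wipi1 was also lower at 600 than at 500 mOsm (-0.23 ± 0.0665, adjusted p = 0.0207). Its relative Wipi2 and the membrane protein gene Atg9a were not called. With counts corrected for GC content and length, Wipi2 was called lower at 500 mOsm (-0.13, edgeR adjusted p = 0.0435).

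These calls were near the threshold. Atg2a was lost without control replicate 1 or 3 or 600 mOsm replicate 1 or 3 (adjusted p 0.072 to 0.108), Atg2b against control without any 1 of 6 libraries (control replicates 1 and 2, 500 mOsm replicate 1 and each 600 mOsm replicate, 0.0615 to 0.173), and Wipi1 without 500 mOsm replicate 3 or 600 mOsm replicate 1 or 3 (0.0549 to 0.0946) or without the filter (0.0801). The replicate block ended the call of Atg2a (0.0509), and 7 other settings, DESeq2 among them, that of Atg2b against control (up to 0.101). With the GC and length correction Atg2b was not called (0.03 against control, adjusted p = 0.744, and -0.05 between the stresses, adjusted p = 0.546).

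In the conjugation machinery Atg16l1 had the largest change of the 36 genes at 500 mOsm. Its protein binds Atg5 joined to Atg12 and fixes where Atg8 proteins are attached. Atg16l1 measured 67.4, 64.9 and 62.5 CPM in control, 34.0, 33.9 and 35.8 at 500 mOsm, and 55.0, 51.6 and 48.6 at 600 mOsm. The 3 groups were fully separate, with 600 mOsm between control and 500 mOsm. The level at 500 mOsm was 0.532-fold of control (log2 fold change -0.91 ± 0.0621, adjusted p = 2.96e-07). At 600 mOsm it was 0.797-fold of control (-0.33 ± 0.0611, adjusted p = 0.00129) and 1.5-fold of the 500 mOsm level (adjusted p = 1.93e-05). Its relative Atg16l2, from the list of other pathway genes, fell at 500 mOsm too (-0.46 ± 0.135, adjusted p = 0.0208) and was at -0.01 against control at 600 mOsm.

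Atg7, the E1-like enzyme that activates both Atg12 and the Atg8 proteins, was slightly higher at both stresses. It measured 33.0, 35.8 and 35.0 CPM in control, 39.5, 41.4 and 38.7 at 500 mOsm, and 39.7, 38.7 and 38.4 at 600 mOsm. No stressed library overlapped a control library. The log2 fold changes were 0.20 ± 0.0602 (adjusted p = 0.0227) and 0.17 ± 0.0604 (adjusted p = 0.0452). The call at 500 mOsm was lost without control replicate 1 or 3 or 500 mOsm replicate 2 (adjusted p 0.0567 to 0.109), and that at 600 mOsm without any library but 500 mOsm replicate 3 (0.0535 to 0.16). The replicate block and a fit without the filter ended both calls, and DESeq2, library size alone and both limma fits that at 600 mOsm (up to 0.101 and 0.136). Atg3, Atg5, Atg10 and Atg12 were not called, and the interval of Atg10, the least expressed of the set, reached from -0.30 to 1.06 at 500 mOsm.

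Of the 4 Atg4 proteases, which trim Atg8 proteins and free them from lipid, only Atg4b was called, at 500 mOsm. Of all genes, 28.0% were called there and 14.8% were lower. The shares called were 35.1% at 600 mOsm against control and 29.1% between the stresses. Atg4b measured 65.5, 67.4 and 66.0 CPM in control, 59.0, 60.3 and 58.7 at 500 mOsm, and 62.5, 60.1 and 67.6 at 600 mOsm. The 500 mOsm values lay below all control values (-0.16 ± 0.0548, adjusted p = 0.0457). The call was lost without any 1 of 7 libraries (all 3 control and all 3 500 mOsm replicates and 600 mOsm replicate 1, adjusted p 0.0608 to 0.12). It was also lost by DESeq2 (0.0697), with RLE factors (0.0563), without the filter (0.0736), with at least 10 counts in every library (0.0666), with the replicate block (0.0941) and after the GC and length correction (-0.13, adjusted p = 0.0823). Atg4b overlaps Thap4 on the opposite strand over 3365 bases, and whether counting used the strand is not given in the sources used here, so reads of this stretch cannot be assigned with certainty. Thap4 changed by -0.08 at 500 mOsm (adjusted p = 0.428). Atg4d likewise overlaps Kri1 over 912 bases.

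The Atg8 family, the proteins displayed on the autophagosome membrane, had 2 of 5 genes higher at 500 mOsm, where 13.2% of all genes were higher. Gabarapl1 was called higher at both stresses. It measured 125, 128 and 120 CPM in control, 151, 163 and 153 at 500 mOsm, and 156, 146 and 152 at 600 mOsm, so that every stressed library was above every control library. The log2 fold change was 0.33 ± 0.0501 at 500 mOsm (adjusted p = 0.000301) and 0.29 ± 0.0502 at 600 mOsm (adjusted p = 0.000864), and the stresses differed by -0.04 (95% interval -0.15 to 0.07).

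Map1lc3b, which encodes LC3B, rose at 500 mOsm only. It measured 70.8, 68.9 and 69.6 CPM in control, 77.8, 80.2 and 93.2 at 500 mOsm, and 67.5, 69.7 and 69.2 at 600 mOsm. The 500 mOsm libraries lay above all others, with 1 of them well above the other two, and the control and 600 mOsm values overlapped. The log2 fold change was 0.26 ± 0.0649 at 500 mOsm (adjusted p = 0.00811), and 600 mOsm was lower than 500 mOsm by -0.28 ± 0.0649 (adjusted p = 0.0056). Map1lc3b overlaps the 3' neighbour Zcchc14 on the opposite strand by 58 bases. The log2 fold change of Zcchc14 was -0.30 at 500 mOsm against control (adjusted p = 0.0021), where Map1lc3b rose. It was -1 at 600 mOsm against control (adjusted p = 1.57e-07), where Map1lc3b was at -0.02, and -0.70 between the stresses (adjusted p = 3.91e-06). The part of those shared bases in the Map1lc3b value was not tested.

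The other Atg8 genes were not called in any comparison of the main fit. Map1lc3a measured 23.4, 27.2 and 27.8 CPM in control, 29.1, 29.9 and 28.4 at 500 mOsm, and 29.0, 27.6 and 34.3 at 600 mOsm, with log2 fold changes of 0.15 and 0.21 (adjusted p = 0.254 and 0.0927). Without 600 mOsm replicate 2 it was called at 600 mOsm against control (0.28, edgeR adjusted p = 0.0452). Gabarap, the most abundant of the family, measured 190, 179 and 183 CPM in control, 179, 191 and 221 at 500 mOsm, and 215, 211 and 200 at 600 mOsm. Its 600 mOsm libraries lay above the control libraries (0.18 ± 0.0683, adjusted p = 0.0577). This difference was called in a fit of just the 2 groups (edgeR adjusted p = 0.00996) and without the filter (0.0212). It was also called without 500 mOsm replicate 1 (0.0362) or 3 (0.0121). Without 500 mOsm replicate 3 Gabarap was called between the stresses too (0.17, 0.0331). Gabarapl2 measured 121, 115 and 116 CPM in control, 117, 123 and 135 at 500 mOsm, and 122, 121 and 115 at 600 mOsm, and its groups overlapped. Summed over the 5 genes, the family stood at 318 ± 6.36 FPKM in control, 356 ± 25.4 at 500 mOsm and 352 ± 9.66 at 600 mOsm (SD, n = 3). Gabarap made up 43.0%, 41.0% and 43.5% of these sums, and Map1lc3b 5.32%, 5.70% and 4.68%.

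Of the cargo receptors, Sqstm1 was the only autophagy gene called in opposite directions at the 2 stresses relative to control. It encodes p62, which gathers ubiquitinated cargo and is itself degraded by autophagy. Sqstm1 measured 547, 589 and 562 CPM in control, 625, 667 and 633 at 500 mOsm, and 508, 485 and 528 at 600 mOsm. The 3 groups did not overlap, with 500 mOsm highest and 600 mOsm lowest. The log2 fold change was 0.18 ± 0.048 at 500 mOsm (adjusted p = 0.0127) and -0.16 ± 0.0481 at 600 mOsm (adjusted p = 0.0216), and the direct contrast of 600 against 500 mOsm was -0.34 ± 0.0481 (adjusted p = 0.000179). The direct contrast was called whichever library was left out. The call at 500 mOsm was lost without control replicate 1 or 3 or 500 mOsm replicate 2 (adjusted p 0.0505 to 0.0958), and that at 600 mOsm without control replicate 2 or 3 or 600 mOsm replicate 1 or 2 (0.0509 to 0.0886) and with the replicate block (0.0516). With the uncentred form of the GC and length correction the value at 500 mOsm was 0.02 (adjusted p = 0.653), and that at 600 mOsm was -0.23 and still called.

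Nbr1, a receptor related to Sqstm1, rose at 500 mOsm. It measured 40.8, 39.8 and 40.6 CPM in control, 55.9, 46.8 and 52.4 at 500 mOsm, and 45.5, 46.0 and 42.0 at 600 mOsm. All stressed libraries were above control, and those at 500 mOsm were the highest. The log2 fold change was 0.36 ± 0.0706 at 500 mOsm (adjusted p = 0.00201). At 600 mOsm it was 0.14 ± 0.0711 (adjusted p = 0.15), and 600 mOsm was lower than 500 mOsm by -0.22 ± 0.0703 (adjusted p = 0.0353). This last call was lost without control replicate 3, 500 mOsm replicate 1 or 3, or 600 mOsm replicate 1 or 3 (adjusted p 0.0504 to 0.143) and with the GC and length correction (-0.12, adjusted p = 0.119), which in turn called Nbr1 at 600 mOsm against control (0.27, adjusted p = 0.00251). It was lost as well without the filter, in a fit of just the 2 groups, with the replicate block and in both limma fits (up to 0.0665). Optn and Tax1bp1, which also bind ubiquitinated cargo, and Calcoco1 were not called.

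**Figure D4:**
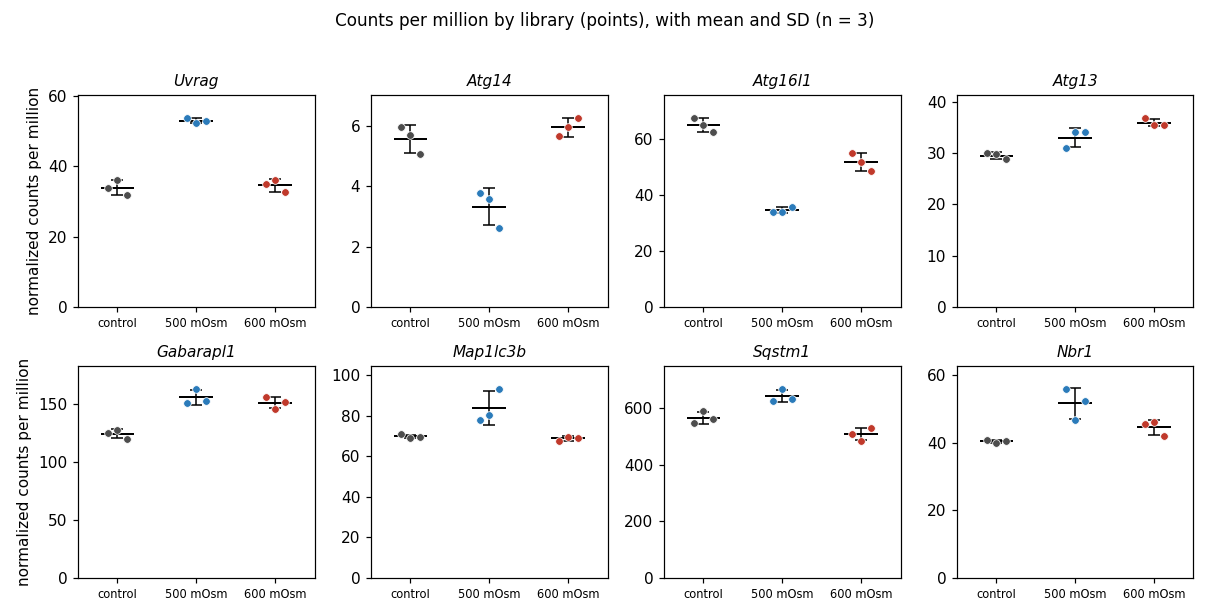
Counts scaled by library size (CPM) of 8 autophagy genes in each library (points), with the mean as a bar and the SD as whiskers (n = 3). Uvrag, Map1lc3b, Sqstm1 and Nbr1 are highest at 500 mOsm, Atg14 and Atg16l1 are lowest there, Gabarapl1 is raised at both stresses, and Atg13 is highest at 600 mOsm.

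Each call was refitted under 19 other settings of normalization, filter, test, threshold and libraries. Calls held in all 19 for 6 of the 9 genes at 500 mOsm (Uvrag, Nbr1, Gabarapl1, Map1lc3b, Atg14 and Atg16l1), for 3 of the 8 at 600 mOsm (Atg13, Gabarapl1 and Atg16l1), and for 5 of the 10 between the stresses (Uvrag, Sqstm1, Map1lc3b, Atg14 and Atg16l1).

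Genes around the core machinery were taken from 3 lists. Of 25 other genes of autophagosome formation and fusion, 24 were tested, and 2 were higher and 6 lower at 500 mOsm, 4 higher and 7 lower at 600 mOsm, and 3 higher and 2 lower at 600 than at 500 mOsm. These were 33.3%, 45.8% and 20.8% of the list, beside 28.0%, 35.1% and 29.1% of all genes. Their median log2 fold changes were -0.11, -0.06 and 0, beside 0.01 for all genes each time. Vps18, a subunit of the HOPS and CORVET tethering complexes, fell from 53.2, 58.8 and 56.8 CPM in control to 35.4, 35.4 and 31.8 at 500 mOsm (-0.72 ± 0.0816, adjusted p = 2.39e-05), and measured 47.1, 45.0 and 55.2 at 600 mOsm, which was higher than at 500 mOsm (0.52 ± 0.0818, adjusted p = 0.000395). Its partner Vps33a rose at both stresses (0.29 ± 0.0492, adjusted p = 0.000599, and 0.20 ± 0.0493, adjusted p = 0.00826). Nrbf2, a subunit of the Atg14 complex, fell at both stresses (32.4 to 32.7 CPM in control, 22.6 to 25.1 at 500 mOsm, 22.8 to 25.3 at 600 mOsm), by a log2 fold change of -0.42 at each (adjusted p = 0.000537 and 0.00058). Rubcn, which binds the Uvrag complex and holds back maturation, rose by 0.25 at each (adjusted p = 0.00305 and 0.00263). Epg5, a tether for autophagosomes and lysosomes, fell at both stresses and further at 600 mOsm (-0.62 ± 0.0733 against control, adjusted p = 3.71e-05; -0.39 ± 0.0734 against 500 mOsm, adjusted p = 0.00151). Rab7, the small GTPase of late endosomes, was at -0.01 at 500 mOsm and lower at 600 mOsm. The change at 600 mOsm was -0.25 ± 0.0624 against control (adjusted p = 0.00847) and -0.24 ± 0.0623 against 500 mOsm (adjusted p = 0.0115).

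Of 19 receptors for selective autophagy of organelles on the list, 17 were tested, and 0 were called at 500 mOsm by edgeR or by DESeq2, with 4 at an unadjusted p under 0.05. At 600 mOsm 1 was higher and 2 were lower than control, and 2 were lower than at 500 mOsm. The shares called were 0%, 17.6% and 11.8%, beside 28.0%, 35.1% and 29.1% of all genes. Wdfy3 (Alfy), a scaffold for clearing aggregates, measured 68.6, 67.8 and 65.9 CPM in control, 71.1, 68.5 and 68.8 at 500 mOsm, and 39.7, 41.8 and 39.1 at 600 mOsm. The 600 mOsm libraries lay far below all others (-0.75 ± 0.0522 against control, adjusted p = 4.15e-07; -0.79 ± 0.052 against 500 mOsm, adjusted p = 2.84e-07). The others called were Fkbp8, a mitophagy receptor (0.26 ± 0.0698 at 600 mOsm, adjusted p = 0.0117), Tollip (-0.16 ± 0.0526 at 600 mOsm, adjusted p = 0.0341) and the ER-phagy receptor Retreg1 (-0.33 ± 0.0938 between the stresses, adjusted p = 0.0186).

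Genes that act upstream of autophagy, through mTORC1, AMPK and transcription, held larger changes than any of the 36. Of 31 on the list 29 were tested. At 500 mOsm 6 were higher and 6 lower, at 600 mOsm 4 and 4, and between the stresses 4 were higher and 8 lower at 600 mOsm. These were 41.4%, 27.6% and 41.4% of the list, beside 28.0%, 35.1% and 29.1% of all genes. Ddit4 (Redd1), an inhibitor of mTORC1, measured 12.3, 16.3 and 12.4 CPM in control, 139, 137 and 123 at 500 mOsm, and 32.2, 27.7 and 28.8 at 600 mOsm. It was 9.69-fold of control at 500 mOsm (log2 fold change 3.28 ± 0.105, adjusted p = 2.47e-10) and 2.16-fold at 600 mOsm (1.11 ± 0.106, adjusted p = 6.52e-06). Sesn1, which inhibits mTORC1 by way of GATOR2, rose 2.32-fold at 500 mOsm (1.21 ± 0.109, adjusted p = 3.17e-06), while Sesn2 was lower there (-0.68 ± 0.102, adjusted p = 0.000233) and higher at 600 than at 500 mOsm (0.47 ± 0.103, adjusted p = 0.00443). Rragc, a GTPase that brings mTORC1 to the lysosome, fell at 600 mOsm (-0.77 ± 0.0718, adjusted p = 4.97e-06) and was at -0.03 at 500 mOsm. Ddit3 (Chop) rose at 600 mOsm (0.70 ± 0.104, adjusted p = 0.000253). Foxo3, whose protein can activate autophagy genes, fell from 67.3, 72.8 and 64.5 CPM in control to 51.0, 47.7 and 40.8 at 500 mOsm and 37.5, 34.5 and 37.3 at 600 mOsm. All 3 groups were separate (-0.55 ± 0.0811, adjusted p = 0.000204, and -0.90 ± 0.0824, adjusted p = 4.32e-06).

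The family of Tfeb, Tfe3 and Mitf, transcription factors of lysosome and autophagy genes, is added by family, after its values were seen. Mitf fell at both stresses (-0.92 ± 0.144, adjusted p = 0.000337, and -1.56 ± 0.155, adjusted p = 8.76e-06), Tfe3 was slightly higher at 500 mOsm (0.23 ± 0.0586, adjusted p = 0.0109), and Tfeb was not called (-0.17 and -0.02). The genes Foxo1 (-1.10 at 600 mOsm, adjusted p = 4.67e-05) and Foxo3 fell alike, and Foxo4 was not called.

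**Figure D5:**
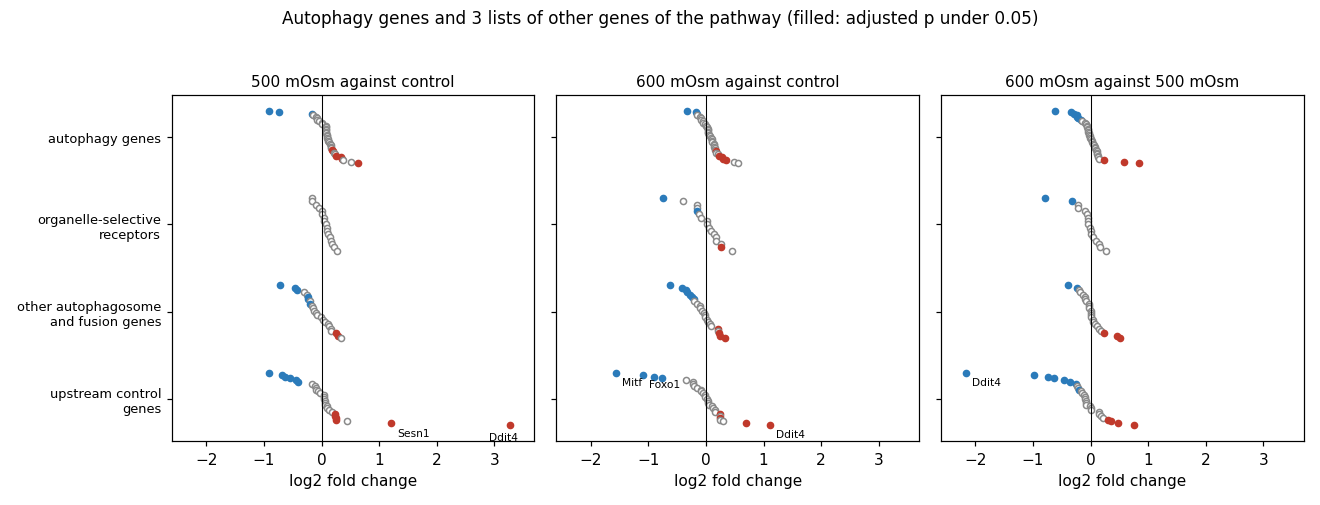
Log2 fold changes of the 36 autophagy genes and of the tested genes of 3 lists around them, 1 point per gene, in the 3 comparisons. Filled points passed an adjusted p of 0.05 (red, higher; blue, lower), and names mark absolute changes over 1. Only the upstream control genes reach beyond 1, led by Ddit4 at 3.28 at 500 mOsm.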

How the data were processed

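Poly-A RNA of 9 libraries (3 per group) was sequenced as paired ends on an Illumina instrument, and the authors aligned the reads to mm10. Per the labels, the submitters' notes name CASAVA 1.8 and STAR; the counting tool is not given in the sources used here. The authors deposited 1 table with a raw read count per gene and library and an FPKM, which equals the count divided by gene length and column total. Their fold changes, p-values and 3 columns of mean FPKM were not used.

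Counts were tested in edgeR 4.0.16 (R 4.3.3) by the quasi-likelihood test with TMM factors, all 9 libraries in 1 fit, on the 13082 genes kept by filterByExpr. The adjustment of p-values was Benjamini-Hochberg over those genes, with 0.05 as the threshold. CPM values are scaled by the TMM library size. In CPM, 3 counts are worth 0.112 to 0.138, and the precision is that of 3 libraries. The script was tested on simulated data: 60.6% of 99 genes with an absolute log2 fold change of 0.5 and 84.2% of 101 with 1 were recovered at 500 mOsm against control, among 12399 genes. Only these genes were changed, whereas 28.0% of the genes tested were called in the real comparison. The shares recovered therefore do not measure recovery in the real data. Levels between genes were compared as FPKM. Gene overlaps come from GENCODE M21 (GRCm38, the mm10 assembly), shared sequence from blastn 2.17.0, and promoters from RefSeq (GRCm38.p6).

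Values per library are given for Ulk1, Becn1, the Atg8 genes and Sqstm1 by role, and for the 4 called genes per direction with the largest change in each comparison; other called genes, and the 2 per direction with the smallest p from each list, are named with their values. Atg7 is given per library although that rule did not ask for it, as are some list genes. The members and lists were chosen with earlier results of these data known.

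Alternatives were RLE factors, library size alone, no filter beyond 1 count, at least 10 counts in every library, DESeq2 1.42.0, a fit of just the groups in the comparison, a block for the replicate number, a threshold of 0.01, limma 3.58.1 on log2(FPKM + 1) and log2(FPKM + 0.1), and each library left out. An offset per library for GC content and length of the transcript, with and without centring and with the block, was added after seeing the data. Of the 36 genes, Map1lc3b and Uvrag, among others, share stretches of at least 100 bases at 95% identity with other genes, so part of their reads may be placed uncertainly.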

Additional observations from a re-analysis of the deposited data

How the results depend on the processing

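When single libraries were left out, the genes called higher and lower at 500 mOsm against control numbered 4 to 7 and 2 to 4, at 600 mOsm against control 3 to 6 and 1 to 3, and at 600 against 500 mOsm 2 to 3 and 4 to 7. At 600 mOsm against control the higher genes fell from 5 to 3 without control replicate 1, 2 or 3 or 600 mOsm replicate 1 or 3, and the lower from 3 to 1 without control replicate 2 or 600 mOsm replicate 2. Among all genes, higher calls fell from 1977 to between 1395 and 1660 in the fits where the higher genes of the set fell to 3. Calls of all genes in either direction were 4594 with every library, 4016 without control replicate 2 and 4430 without 600 mOsm replicate 2. Between the stresses the lower genes fell from 7 to 4 without 500 mOsm replicate 3 or 600 mOsm replicate 1 or 3. Calls of all genes in either direction were 3398, 2950 and 2990 in these fits, and 3810 with every library. Medians of the set ranged over 0.08 to 0.12, 0.04 to 0.09 and -0.03 to 0 in the same order of comparisons. With a library left out, the uncalled log2 fold change of Ulk1 at 600 mOsm against control ranged from -0.02 to 0.06, and between the stresses Map1lc3a ranged from -0.04 to 0.13 and Gabarapl1 from -0.06 to 0.

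Other settings moved the following. At 500 mOsm the median was 0.08 without the filter and 0.11 with at least 10 counts in every library. At 600 mOsm it was 0.06 by library size alone, 0.04 on log2(FPKM + 1) and 0.06 on log2(FPKM + 0.1). Between the stresses it was -0.03 by library size alone and in both limma fits, 0.01 without the filter and -0.02 with the stricter filter, which left 35 of the 36 genes tested. Lower genes between the stresses were 4 without the filter, where 4464 of 23419 genes were called in either direction. At an adjusted p under 0.01, 2 genes were higher and 1 lower at 600 mOsm against control, and 3 were lower between the stresses.

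Same-numbered replicates did not deviate together as a set: the mean correlation was -0.206 over 9 pairs (-0.564 to 0.481). The mean over the 18 pairs with different numbers, 0.105 (-0.282 to 0.522), is tied to it, because deviations were centred within groups. The highest was between control replicate 3 and 500 mOsm replicate 1, and control replicate 2 and 600 mOsm replicate 3 reached 0.477. The source of these correlations was not tested, and the numbers were not taken to pair the samples. With the replicate block, 3 genes were higher and 1 lower at 600 mOsm against control (5 and 3 without it). Calls of all genes there were 3798 with the block and 4594 without it.

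The offset for GC content and length was chosen after seeing the data. It gave 9 higher genes and a median of 0.10 at 600 mOsm against control, and 5 higher, 4 lower and a median of -0.02 between the stresses. Calls of all genes in these comparisons were 4856 and 4164 with the offset, and 4594 and 3810 without it. The offset added calls of Atg13 (0.16, edgeR adjusted p = 0.0453), Pik3c3 (0.23, 0.0325) and Wipi2 (-0.13, 0.0435) at 500 mOsm against control. At 600 mOsm against control it added Rb1cc1, Nbr1, Atg101 (-0.17, 0.0285), Ambra1 (0.21, 0.0133) and Atg4d (0.23, 0.0486). Between the stresses it added Atg2a (0.22, 0.00687) and Atg4b (0.15, 0.0485). Uncalled values changed sign at 600 mOsm against control for Becn1 (0.01), Map1lc3a (0), Map1lc3b (0.03) and Gabarapl2 (-0.02), and between the stresses for Map1lc3a (-0.06), as did the call of Atg2b at 600 mOsm against control (0.03). With the block added, medians were 0.10 and -0.02, 4 genes were lower between the stresses, and the same values were 0.01, 0, 0.03, -0.02, -0.07 and 0.03. Without centring, the offset moved the median of all genes from 0.01 to -0.08 at 500 mOsm against control and to 0.10 between the stresses, and the share of higher genes among all calls from 47.2% to 28.3% and from 40.9% to 68.4%. It then gave 6 lower genes and a median of -0.01 at 500 mOsm against control, 10 higher and 0.13 at 600 mOsm against control, and 11 higher, 2 lower and 0.08 between the stresses. Signs changed at 500 mOsm for Ulk1 (-0.06), Map1lc3a (-0.12) and Gabarap (-0.04), at 600 mOsm for Becn1 (0.04), Atg2b (0.03), Map1lc3a (-0.05) and Map1lc3b (0.05), and between the stresses for Ulk1 (0.07), Atg2b (0.06) and Gabarapl1 (0.05). Calls were lost at 500 mOsm for Atg7 (0.09, edgeR adjusted p = 0.235) and Sqstm1 (0.02, 0.653), and between the stresses for Becn1 (-0.07, 0.418), Atg2b (0.06, 0.505), Wipi1 (-0.11, 0.17), Map1lc3b (-0.13, 0.107) and Nbr1 (-0.04, 0.561), while Gabarap was then called (0.18, 0.0198). The causes of these shifts were not tested. The other counts of called genes stayed within 1.5 times their reported values.

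With 3 libraries a group, the smallest change called was 0.16 on the log2 scale, and the median SE over the set was 0.0733 at 500 mOsm against control. Rb1cc1 and Atg10, at under 1 FPKM in control, had SEs of 0.295 to 0.325, so the smaller changes called in other genes were not detectable there.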
